A study of Oryza sativa with 12 samples.

Results

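The subject of this account is the difference between the heat responses of 2 near-isogenic rice lines, computed for each gene as the heat response of NIL-TT2HPS32 (HPS32 below) minus the heat response of NIL-TT2HJX (HJX below). This difference of responses, the line by heat interaction, uses all 12 of the 12 libraries of the series. It was tested for 25473 of the 40674 genes listed, those with enough reads. The libraries fall into 4 groups of 3. They are HPS32 seedlings, labelled as carrying a loss-of-function TT2, at 42.5 °C for 20 h, HPS32 seedlings at 28 °C, HJX seedlings, labelled wild type, at 42.5 °C for 20 h, and HJX seedlings at 28 °C. All seedlings were 12 days old, were grown at 28 °C before the treatment, and gave RNA from their aerial organs, which the labels call developing tissue. The labels do not say how many plants were pooled in a library or whether the 3 libraries of a group came from separate plants, so p-values measure only the spread between these libraries.

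The product of TT2 is one of the gamma subunits of the trimeric G protein, the membrane-bound switch that passes signals from the cell surface into the cell. Natural loss of TT2 function in rice is known for better survival of heat, and it has been tied to calcium signalling and to the wax on the leaf surface. Plants under heat commonly make chaperones that hold or refold damaged proteins, and they lower the transcripts of photosynthesis and growth.

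Each library held 14785975 to 17871972 reads assigned to genes. The TMM scaling factor, which corrects for the share of reads taken by the most abundant genes, was 1.26 to 1.28 in heated HPS32 libraries, 1.06 to 1.07 in heated HJX libraries and 0.84 to 0.89 at 28 °C. Levels below are CPM (reads per 1e6 reads) on that scale. The 10 most abundant genes took 4.33% to 4.51% of reads in heated HPS32 libraries, 5.56% to 5.69% in heated HJX libraries and 6.66% to 7.86% at 28 °C. TT2 itself had 16 and 7 reads in HPS32 under heat and at 28 °C, and 8 and 9 reads in HJX, each summed over 3 libraries, so its count does not check the genotype. A loss-of-function allele need not lower a transcript.

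The interaction passed an adjusted p of 0.05 for 7473 genes, 29.3% of those tested, of which 3393 were positive (13.3%) and 4080 negative (16%). A negative value means that the level in HPS32 changed less upward, or more downward, than in HJX. The lines themselves were close before heat and apart after it. They differed in 22 genes at 28 °C (0.0864% of those tested), 0.0432% higher and 0.0432% lower in HPS32, and in 11507 genes under heat (45.2%), 21.6% higher and 23.6% lower in HPS32. Among the 7473 interaction genes, the lines differed under heat and not at 28 °C in 7162, which is 95.8%. In these genes the median absolute difference of HPS32 from HJX was 0.67 under heat and 0.09 at 28 °C on the log2 scale. Of all interactions, 2108 were at least 2-fold (8.28% of genes tested), with 1084 positive (4.26%) and 1024 negative (4.02%). The classes below also use the heat calls of each line, which covered 70.4% of tested genes in HPS32 (34% up, 36.4% down) and 74.9% in HJX (38.1% up, 36.8% down). Scaling matters to the direction. The median interaction over all genes was 0.02 with TMM and 0.28 with scaling by total counts, and the positive share of the called interactions was 45.4% with TMM and 77.6% with total counts.

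Most interactions were smaller responses in HPS32. Damped responses, where heat changed the gene in HJX and changed it less in HPS32, numbered 4951 (19.4% of tested genes), of which 2424 (9.52%) were rises and 2527 (9.92%) falls in HJX. Amplified responses, larger in HPS32, numbered 1959 (7.69%), of which 744 (2.92%) were rises and 1215 (4.77%) falls. Opposite responses, called in both lines with opposite signs, numbered 521 (2.05%), of which 419 (1.64%) fell in HPS32 and rose in HJX and 102 (0.4%) rose in HPS32 and fell in HJX. The remaining 42 (0.165%) had neither response called. The classes follow from the calls and carry no test of their own. With total counts 4806 of 8481 interactions were damped, but 47.1% of the damped rises and 77.4% of the damped falls kept their class. The median log2 response of damped rises was 0.35 in HPS32 and 1.09 in HJX, and that of damped falls -0.86 in HPS32 and -1.69 in HJX. For amplified rises the medians were 1.17 in HPS32 and 0.30 in HJX, and for amplified falls -0.88 in HPS32 and -0.24 in HJX. Opposite responses were small, with medians of -0.39 in HPS32 and 0.44 in HJX in the larger class.

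**Figure D1:**
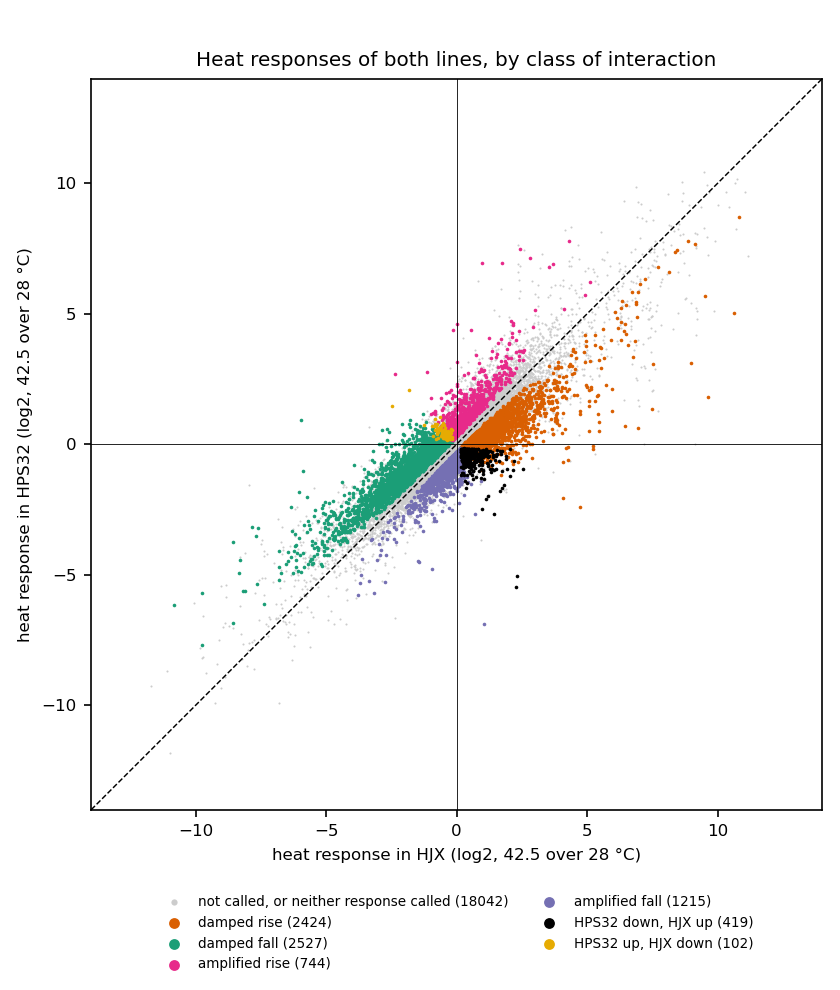
Log2 heat response (42.5 °C over 28 °C) of each tested gene in HPS32 (vertical axis) and in HJX (horizontal axis), coloured by class of interaction, with the number of genes in the legend and a dashed line of equal responses. The 2424 damped rises lie right of the line and the 2527 damped falls left of it, both closer to 0 in HPS32.

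On the side of the falls, and among the rises above 4, most genes responded less in HPS32 than in HJX. Among the 20958 genes whose mean log2 CPM reached 1, the major-axis slope of the HPS32 response on the HJX response was 0.84, and Pearson's r across genes was 0.914. Genes are not independent replicates, and both values are descriptions. Leaving out each library in turn kept the slope between 0.82 and 0.85. Of the 52 genes whose mean response lay below -6, 76.9% responded less in HPS32, with a median interaction of 0.92. Among the 210 genes whose mean response lay between -6 and -4, 86.7% responded less in HPS32, with a median interaction of 0.99. Among the 1390 genes between -4 and -2 it was 80.6%, with a median of 0.60. On the side of the rises the median interaction was -0.17 for the 802 genes between 2 and 4 and -0.70 for the 108 genes between 4 and 6. Of these 108 genes 74.1% responded less in HPS32, but it was 58.7% between 2 and 4 and 57.9% for the 2282 genes between 1 and 2. Those 2 shares were close to the 57.5% of the 13526 genes between -1 and 1. The bins were made with TMM scaling only, and total counts moved the median interaction over all genes from 0.02 to 0.28.

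**Figure D2:**
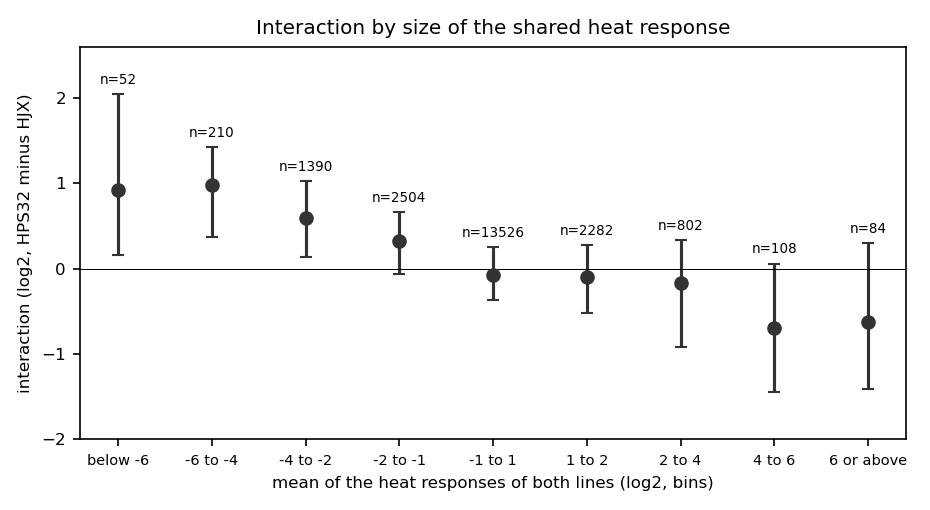
Median log2 interaction with TMM scaling (points) and its quartiles (bars) over tested genes binned by the mean heat response of both lines, with the number of genes in each bin. The median is 0.99 between -6 and -4, close to 0 in the middle bin and -0.70 between 4 and 6.

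Several genes rose strongly in HJX and stayed near their 28 °C level in HPS32. The glycosyl hydrolase family 18 gene Os11g0701100 (chromosome 11, 28730171 to 28731320, coordinates as deposited), of the family that holds chitinases, had 1.03, 1.28 and 0.876 CPM in heated HPS32 and 1.17, 1.99 and 1.69 CPM in HPS32 at 28 °C, against 17.1, 20.5 and 15.7 CPM in heated HJX and 0.437, 1.04 and 1.23 CPM in HJX at 28 °C. The 3 heated HJX libraries stood above all others, and the lines overlapped at 28 °C. Its interaction was -4.89 ± 0.41 (log2 ± SE, adjusted p = 6.29e-08). The cupin gene Os08g0189200 had 22, 19.6 and 12 CPM in heated HPS32 and 16.8, 23.1 and 18.5 CPM at 28 °C, against 366, 504 and 303 CPM in heated HJX and 14, 24.7 and 26 CPM at 28 °C. Again only the heated HJX libraries stood apart, with an interaction of -4.30 ± 0.46 (adjusted p = 0.0002). An unannotated transcript with a BAH domain on chromosome 10, starting at 13756322, averaged 1.01 ± 0.12 CPM in heated HPS32 and 16.9 ± 4.34 CPM in heated HJX (SD, n = 3 each), with an interaction of -4.74 ± 0.46 (adjusted p = 4.95e-07). The value of -7.13 ± 2.21 for the clathrin linker gene Os11g0104866 rests on scattered libraries. Its levels in heated HJX were 24.2, 0.873 and 27.1 CPM and in HPS32 at 28 °C 0.146, 9.47 and 20 CPM, its adjusted p was 0.0426 with a range of 0.00283 to 0.463 over 22 alternatives, and the call was lost in 14 of them, which include the replicate block and 10 of the 12 omissions of a library. This gene and the NAC gene below lie in the end of chromosome 11 that has a near-identical copy on chromosome 12, so the authors' counting may have split their reads.

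The gene Os11g0701100 has neighbours of the same family on chromosome 11. Os11g0701000 had 0.769, 0.213 and 0.412 CPM in heated HPS32 and 7.29, 6.93 and 4.98 CPM in heated HJX, with 7 reads in all in HJX at 28 °C (adjusted p = 5.85e-05). Os11g0701800 had no read in heated HPS32, against 0.366, 0.641 and 1.69 CPM in HPS32 at 28 °C, and 1.2, 2.25 and 1.42 CPM in heated HJX (adjusted p = 0.00017). Of 22 tested genes of the family, 7 had a negative and 2 a positive interaction, beside 16% and 13.3% of all tested genes. These 2 neighbours were picked among genes with a negative interaction, and in both the heated HPS32 libraries lay below all heated HJX libraries. If their sequences are close, reads may have been shared between them, which was not tested.

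Single genes of sugar metabolism and single regulators were among the damped rises. The NAC transcription factor gene Os11g0127600 averaged 4.98 ± 1.60 CPM in heated HPS32 and 1.58 ± 0.62 CPM in HPS32 at 28 °C, against 35.6 ± 3.0 CPM in heated HJX and 0.868 ± 0.44 CPM in HJX at 28 °C (SD, n = 3 each). Its interaction was -3.67 ± 0.48 (adjusted p = 5.82e-05). The trehalose-phosphatase gene Os10g0553300, whose product releases the sugar trehalose from its phosphate, had 14.2, 8.96 and 10.8 CPM in heated HPS32 and 6.88, 4.56 and 3.94 CPM at 28 °C, against 128, 116 and 124 CPM in heated HJX and 4.44, 4.96 and 4.27 CPM at 28 °C. It rose in both lines, with heated libraries of each above those at 28 °C, and the interaction was -3.60 ± 0.27 (adjusted p = 6.47e-07). Of 18 trehalose genes tested, 8 had a negative interaction and 0 a positive one, where 16% of all tested genes were negative. The list's median interaction was -0.68, and its median response was -0.85 in HPS32 and -0.52 in HJX. By class 3 were damped rises, 3 amplified falls, 1 fell in HPS32 and rose in HJX, and 1 had neither response called. The alpha-amylase gene Os08g0473900, an enzyme of starch breakdown, had 225, 219 and 190 CPM in heated HPS32 against 1490, 1537 and 1247 CPM in heated HJX, and under 1.4 CPM in every library at 28 °C. Its interaction was -2.14 ± 0.46 (adjusted p = 0.00254). The RNA-binding protein gene Os05g0223200 averaged 5.22 ± 0.41 CPM in heated HPS32 and 73.1 ± 1.47 CPM in heated HJX (SD, n = 3 each), with an interaction of -3.62 ± 0.27 (adjusted p = 1.47e-08). Of 196 genes with an RNA recognition motif, 66 had a negative and 15 a positive interaction, and their median of -0.18 with TMM turned to 0.09 with total counts.

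Hsp90 and most small heat shock protein genes with an interaction rose less in HPS32. All 4 called Hsp90 genes, of 9 tested, had a negative interaction, where 16% of all tested genes were negative and 13.3% positive. The most abundant of them, Os09g0482100, averaged 1224 ± 78.8 CPM in heated HPS32 and 286 ± 17.5 CPM at 28 °C, against 1778 ± 31.5 CPM in heated HJX and 308 ± 6.24 CPM at 28 °C (SD, n = 3 each). It rose in both lines, with an interaction of -0.43 ± 0.11 (adjusted p = 0.00668, range 0.000511 to 0.271 over 22 alternatives, lost with total counts), and was named after its values were seen. The Hsp90 gene with the largest interaction, Os04g0108101, gave -1.33 ± 0.41 (adjusted p = 0.0196, range 0.0127 to 0.0854 over 22 alternatives), and the call was lost with limma-voom and without HPS32 28 °C library 1 or 3 or HJX 28 °C library 3. Of 29 small heat shock protein genes, 8 had a negative interaction and 1 a positive one, and 20 did not pass the test. The list median was -0.33 with TMM and -0.06 with total counts. Os03g0266300, chosen after its values were seen, averaged 505 ± 51.3 CPM in heated HPS32 and 753 ± 32.4 CPM in heated HJX, with an interaction of -0.87 ± 0.16 (adjusted p = 0.000458). By class, 6 of the called small heat shock protein genes were damped rises, 2 amplified falls and 1 a damped fall. The positive member, Os07g0517100, fell in both lines and less in HPS32, with an interaction of 0.75 ± 0.10 (adjusted p = 1.66e-05). Os01g0135800, with no read in 2 of 3 HJX libraries at 28 °C, had 2.87, 2.40 and 2.89 CPM in heated HPS32 and 3.41, 4.18 and 2.99 CPM in heated HJX, and its call (adjusted p = 0.0467, range 0.0225 to 0.126 over 22 alternatives) was lost in 17 of them, the replicate block among them.

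Called interactions of DnaJ genes and heat stress transcription factors were mostly negative with TMM scaling. Of all tested genes, 16% were negative and 13.3% positive. Among 75 DnaJ genes, co-chaperones of Hsp70, 24 had a negative and 7 a positive interaction, and their median of -0.26 turned to 0.01 with total counts. The DnaJ gene Os02g0693200 had 67.4, 70.9 and 60.6 CPM in heated HPS32 and 48.9, 49.4 and 52.4 CPM at 28 °C, against 294, 309 and 293 CPM in heated HJX and 52.6, 49.2 and 55.4 CPM at 28 °C. The heated groups lay apart from each other and above both 28 °C groups, which overlapped, and the interaction was -2.11 ± 0.10 (adjusted p = 1.34e-10). The ClpB-type gene Os02g0181900, of the family of disaggregases, averaged 22.9 ± 1.29 CPM in heated HPS32 and 65.0 ± 5.23 CPM in heated HJX, with an interaction of -1.71 ± 0.16 (adjusted p = 2.11e-07). The list of Clp, HSP101 and chaperonin genes was mixed, with 7 of 40 positive and 8 negative, and its median of -0.08 turned to 0.18 with total counts. The Hsp70 gene Os01g0840100 gave -1.03 ± 0.21 (adjusted p = 0.00389), while the Hsp70 list was even, with 3 of 25 positive and 3 negative. Of 22 genes with an HSF-type DNA-binding domain, the regulators of chaperone genes, 7 had a negative interaction, 0 a positive one and 15 did not pass. The list's median interaction was -0.50 with TMM and -0.23 with total counts, and its median response was -0.48 in HPS32 and -0.37 in HJX. Os08g0546800 had 2.46, 2.72 and 2.94 CPM in heated HPS32 and 5.64, 4.56 and 3.73 CPM at 28 °C, against 5.44, 5.05 and 6.35 CPM in heated HJX and 3.71, 3.13 and 2.39 CPM at 28 °C. It fell in HPS32, except that it counted as a damped rise with total counts, and rose in HJX, with an interaction of -1.64 ± 0.31 (adjusted p = 0.000504). Os03g0224700, chosen after its values were seen, averaged 51.2 ± 2.41 CPM in heated HPS32 and 89.1 ± 5.05 CPM in heated HJX, with an interaction of -0.83 ± 0.11 (adjusted p = 2.02e-05).

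Regulator lists differed in direction with TMM scaling, where 16% of all tested genes were negative and 13.3% positive. The bHLH genes were positive in 15 and negative in 8 of 72, homeobox genes in 19 and 10 of 57, and WRKY genes in 7 and 7 of 66. Ubiquitin-conjugating enzymes, which hand ubiquitin to proteins marked for breakdown, were negative in 16 and positive in 2 of 41, with a median of -0.31 that was -0.05 with total counts. Os09g0294300 had 4.72, 4.58 and 4.79 CPM in heated HPS32 and 3.15, 2.35 and 2.11 CPM at 28 °C, against 11.6, 11.8 and 12 CPM in heated HJX and 1.97, 2.09 and 1.88 CPM at 28 °C. It rose in both lines with no overlap between the heated groups, and the interaction was -1.68 ± 0.26 (adjusted p = 9.71e-05). MYB genes were negative in 42 and positive in 9 of 169, and NAC genes in 15 and 3 of 68, so 24.9% and 22.1% were negative, and the medians of -0.11 and -0.12 turned to 0.16 and 0.14 with total counts. Genes with EF-hands, which bind calcium, were negative in 23 and positive in 5 of 87, with a median of -0.23 that turned to 0.04 with total counts. The EF-hand gene Os08g0558100 averaged 25.7 ± 2.1 CPM in heated HPS32 and 73.2 ± 3.34 CPM in heated HJX (SD, n = 3 each), with an interaction of -1.66 ± 0.16 (adjusted p = 3e-07). Protein phosphatase 2C genes, a family with repressors of abscisic acid signalling, were negative in 21 and positive in 4 of 72, with a median of -0.18 that turned to 0.08 with total counts.

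Most light-harvesting and photosystem genes fell less in HPS32 than in HJX. Of 38, 31 had a positive interaction and 0 a negative one, where 13.3% of all tested genes were positive. By class 30 were damped falls and 1 an amplified rise, and 7 did not pass. The list's median response was -3.33 in HPS32 and -4.36 in HJX, and its median interaction 1.01. The chlorophyll a/b-binding gene Os03g0592500, chosen after its values were seen, averaged 770 ± 130 CPM in heated HPS32 and 336 ± 91.7 CPM in heated HJX (SD, n = 3 each), against 11200 ± 23.4 CPM in HPS32 and 11320 ± 1388 CPM in HJX at 28 °C. Its interaction was 1.21 ± 0.23 (adjusted p = 0.00114). The photosystem II gene Os08g0119800 (PsbY) had 0.718, 1.12 and 1.80 CPM in heated HPS32 and 0.299, 0.250 and 0.629 CPM in heated HJX, against 21.0 to 30.5 CPM in all libraries at 28 °C, with an interaction of 1.75 ± 0.44 (adjusted p = 0.0059). The Rubisco small subunit gene Os12g0291100, of the enzyme that fixes carbon dioxide, had 290, 212 and 223 CPM in heated HPS32 and 106, 156 and 109 CPM in heated HJX. All 3 heated HPS32 libraries lay above all 3 heated HJX libraries, and the interaction was 1.00 ± 0.23 (adjusted p = 0.00519).

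The Calvin cycle list was mixed. Of 15 genes, 7 had a positive and 4 a negative interaction, beside 13.3% and 16% of all tested genes, with a median of 0.42. The domain wording that defined the list also takes in uridine kinases, which salvage nucleotides and are no part of the cycle, and 3 of the 4 negative members, Os02g0708200, Os02g0273000 and Os02g0273050, carry such a domain or a domain of the same salvage pathway. Without these 3, a choice made after the values were seen, 7 of 12 were positive and 1 negative, with a median of 0.69. Their interactions were -0.36, which lost its call with total counts (adjusted p = 0.554, lowest 0.00708 over 22 alternatives), -2.05 and -2.35. Os02g0273000 and Os02g0273050 overlap on chromosome 2, and their reads cannot be told apart without strand. The fourth, the fructose bisphosphatase gene Os05g0438600, had 45.6, 43.9 and 47 CPM in heated HPS32 and 31.1, 31.1 and 40.4 CPM at 28 °C, against 528, 513 and 491 CPM in heated HJX and 36.3, 39.6 and 41.3 CPM at 28 °C. It rose in both lines, and the interaction was -3.30 ± 0.13 (adjusted p = 9.37e-12). Of 11 chlorophyll synthesis genes, 5 had a positive and 0 a negative interaction. Among them Os06g0132400, a methyltransferase of that pathway, averaged 36.5 ± 3.77 CPM in heated HPS32 and 14.1 ± 2.43 CPM in heated HJX, with an interaction of 1.34 ± 0.18 (adjusted p = 5.75e-05).

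**Figure D3:**
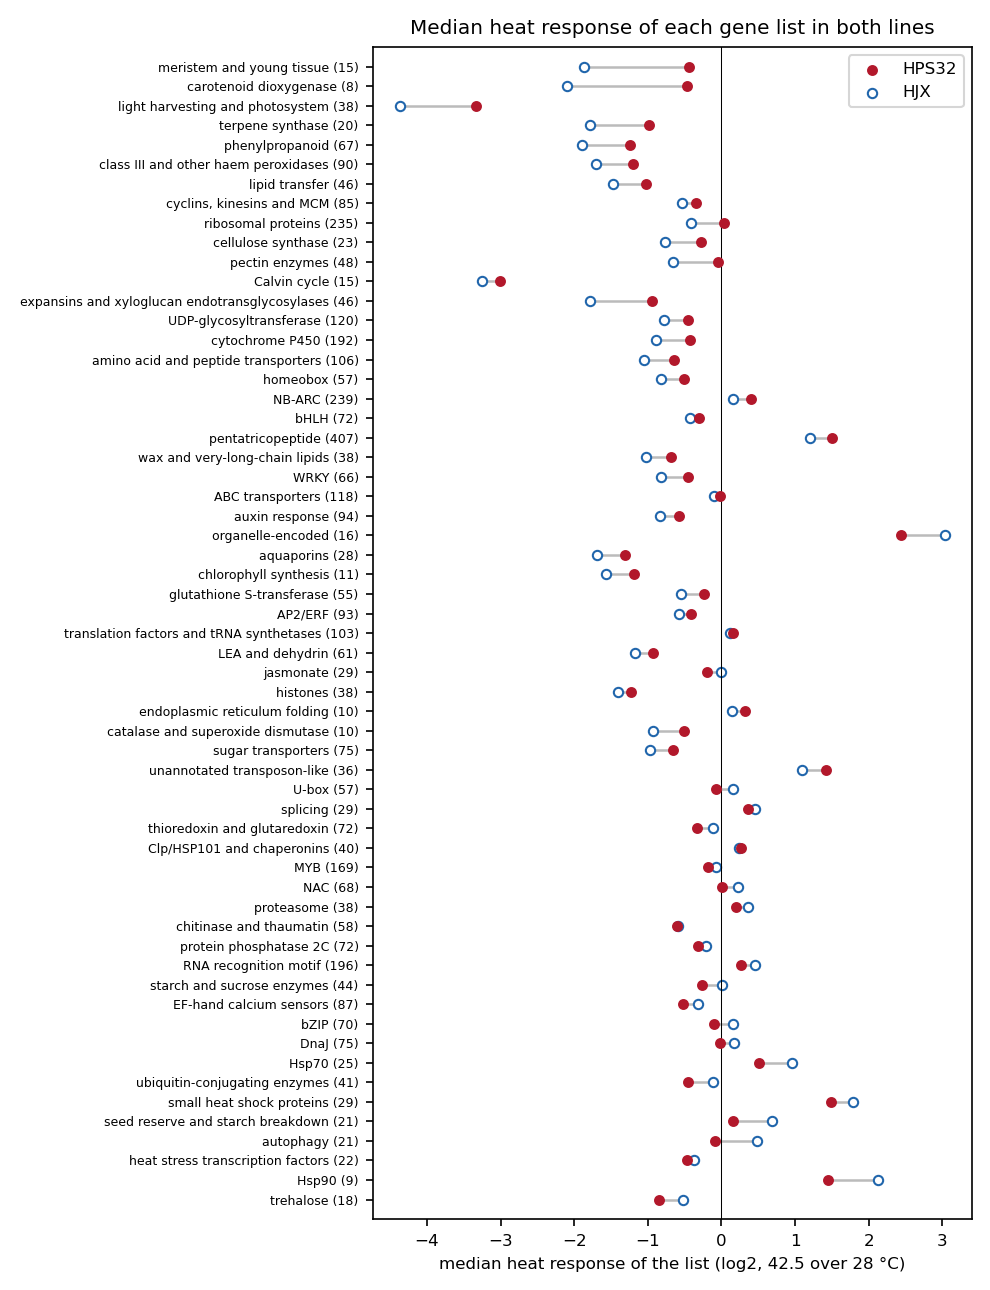
Median log2 heat response of each gene list with at least 8 tested genes in HPS32 (filled points) and HJX (open points), ordered by median interaction, with the number of tested genes in parentheses. Light-harvesting and photosystem genes lie at -3.33 in HPS32 and -4.36 in HJX, and autophagy genes at -0.09 in HPS32 and 0.48 in HJX.

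Most genes on the list of meristem and young tissue, which holds MCM genes of DNA replication, were damped falls. Of 15 genes on this list, 9 had a positive and 1 a negative interaction, beside 13.3% and 16% of all tested genes. The list's median response was -0.44 in HPS32 and -1.87 in HJX. The list's 6 MCM genes, whose products form the replicative helicase, all had a positive interaction, from 1.33 ± 0.26 for Os12g0560700 to 1.89 ± 0.28 for Os05g0476200, with 1.74 for Os02g0797400, 1.79 for Os05g0235800 and 1.85 for both Os01g0544450 and Os11g0484300. These were singled out after their values were seen. Os11g0484300 had 9.75, 12.0 and 10.1 CPM in heated HPS32 and 17.2, 11.8 and 12.4 CPM at 28 °C, against 2.93, 3.06 and 3.51 CPM in heated HJX and 18.3, 13.2 and 13.3 CPM at 28 °C. The heated HJX libraries lay below all others (adjusted p = 1.7e-05). The negative member of the list, the KNOX2 gene Os02g0182800, gave -0.37 ± 0.09 (adjusted p = 0.00528, range 0.00187 to 0.414 over 22 alternatives, lost with total counts). In whole aerial organs, fewer cells of a type and less RNA per cell cannot be told apart. Of 85 cyclin, kinesin and MCM genes, 27 were positive and 7 negative. The cyclin gene Os09g0111100 had 1.28, 1.17 and 0.361 CPM in heated HPS32 and under 0.25 CPM in every heated HJX library. Histone genes split evenly, with 8 of 38 positive and 8 negative. The core histone gene Os03g0162200 gave 2.11 ± 0.36 (adjusted p = 0.000648), and the linker histone gene Os03g0799000, at 34 ± 1.7 CPM in heated HPS32 and 62.3 ± 5.62 CPM in heated HJX, gave -0.91 ± 0.13 (adjusted p = 2.98e-05).

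Ribosomal protein genes shared a direction. Of 235, 137 had a positive and 6 a negative interaction, with a median response of 0.03 in HPS32 and -0.42 in HJX. By class, 101 were damped falls, 27 amplified rises and 9 rose in HPS32 and fell in HJX. The positive member with the largest interaction, Os07g0565000, averaged 2 ± 0.44 CPM in heated HPS32 and 0.77 ± 0.29 CPM in heated HJX, with 1.67 ± 0.52 (adjusted p = 0.0196, range 0.00639 to 0.0531 over 22 alternatives, lost without HPS32 28 °C library 2 or HJX 28 °C library 2). The largest negative member, Os05g0169100, averaged 413 ± 25.3 CPM in heated HPS32 and 711 ± 4.79 CPM in heated HJX, with an interaction of -0.81 ± 0.11 (adjusted p = 2.05e-05). Pentatricopeptide repeat genes, which process organelle transcripts, were positive in 58 and negative in 9 of 407, so 14.3% were positive where 13.3% of all tested genes were.

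Other damped falls included a nitrate reductase-type gene, an aquaporin gene and phenylpropanoid genes. The gene Os02g0770800 carries the molybdenum cofactor domains found in nitrate reductase. It had 16.9, 13.4 and 14 CPM in heated HPS32 and 107, 108 and 122 CPM at 28 °C, against 1.25, 3.43 and 1.63 CPM in heated HJX and 103, 124 and 100 CPM at 28 °C. It fell in both lines without overlap between the heated groups, and the interaction was 2.78 ± 0.31 (adjusted p = 0.000103). The aquaporin gene Os09g0541000 had 11.8, 9.91 and 12.1 CPM in heated HPS32 and 2.81, 4.12 and 1.73 CPM in heated HJX, against 199 to 267 CPM at 28 °C, with an interaction of 2.01 ± 0.29 (adjusted p = 0.000472). The aquaporin list was mixed, with 6 of 28 positive and 5 negative, beside 13.3% and 16% of all tested genes. In the other direction, Os10g0492600 had 0.513, 0.853 and 0.464 CPM in heated HPS32 and 6.7, 7.42 and 4.51 CPM in heated HJX, with no read in HJX and 7 reads in HPS32 at 28 °C (adjusted p = 0.000457). Of 67 phenylpropanoid genes, which feed lignin and flavonoids, 23 were positive and 2 negative, with a median of 0.83. The chalcone synthase-type gene Os04g0116800 gave 2.16 ± 0.40 (adjusted p = 0.000492). Lipid transfer genes were positive in 17 and negative in 2 of 46, and Os12g0115500, which has a close copy on chromosome 11 and so an uncertain count, averaged 78.3 ± 9.50 CPM in heated HPS32 and 23.8 ± 9.27 CPM in heated HJX, with an interaction of 1.70 ± 0.30 (adjusted p = 0.00276). Another member of the damped falls, the hydrophobic seed protein gene Os06g0168700, fell in HJX alone by the calls. It had 1.49, 2.08 and 2.37 CPM in heated HPS32 and 1.39, 1.57 and 0.986 CPM at 28 °C, against 0.538, 0.686 and 0.629 CPM in heated HJX and 4.88, 2.55 and 4.41 CPM at 28 °C. HJX lay above HPS32 at 28 °C. The interaction was 3.24 ± 0.47, and the gene counted as opposite with total counts. The remaining named falls were the kinase gene Os08g0512600 (2.83 ± 0.65) and the HMG box gene Os02g0258200 (2.78 ± 0.68, adjusted p = 0.0114, range 0.000201 to 0.0536 over 22 alternatives, lost with limma-voom).

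Lipid and wall enzymes held both directions. Of 38 wax and very-long-chain lipid genes, 9 were positive and 3 negative, beside 13.3% and 16% of all tested genes. The list's median was 0.26. The domain wording of that list also takes in the chalcone synthase-type gene Os04g0116800, and without it 8 of 37 were positive, with a median of 0.25. The negative member with the largest interaction, Os02g0813600, of the family of enzymes that lengthen fatty acids, averaged 6.88 ± 1.04 CPM in heated HPS32 and 16.3 ± 1.25 CPM at 28 °C, against 18 ± 0.86 CPM in heated HJX and 19.1 ± 1.54 CPM at 28 °C (SD, n = 3 each), with -1.17 ± 0.17 (adjusted p = 5.24e-05). Of 48 pectin enzyme genes, 13 were positive and 1 negative. The pectinesterase gene Os04g0553500 averaged 8.59 ± 2.71 CPM in heated HPS32 and 2.09 ± 1.5 CPM in heated HJX, with 2.01 ± 0.52 (adjusted p = 0.0197, range 0.00116 to 0.0601 over 22 alternatives, lost without heated HJX library 1). Cellulose synthase genes were positive in 10 and negative in 2 of 23.

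**Figure D4:**
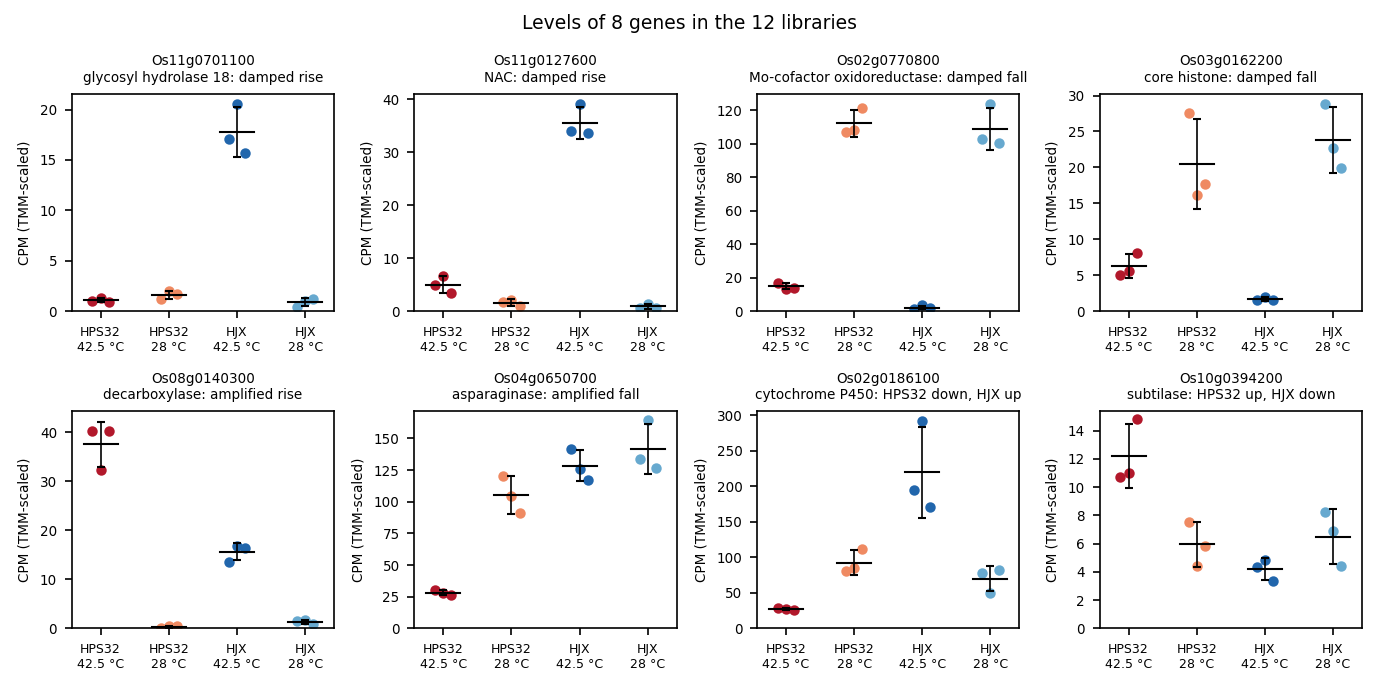
CPM of 8 genes in each library (points), with the mean (line) and SD (bar) of each group of 3, ordered HPS32 at 42.5 °C, HPS32 at 28 °C, HJX at 42.5 °C and HJX at 28 °C. The core histone gene Os03g0162200 averages 6.25 CPM in heated HPS32 and 1.69 CPM in heated HJX, and the P450 gene Os02g0186100 lies near 27 CPM in heated HPS32 and above 170 CPM in heated HJX.

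Amplified rises numbered fewer than damped rises with TMM, and more with total counts, where there were 2795 amplified and 1531 damped rises. The decarboxylase gene Os08g0140300, of the family that makes amines from amino acids, had 40.2, 32.2 and 40.3 CPM in heated HPS32 and 0.0732, 0.427 and 0.493 CPM at 28 °C, against 13.6, 16.9 and 16.5 CPM in heated HJX and 1.53, 1.63 and 0.868 CPM at 28 °C. HPS32 lay above HJX under heat and below it at 28 °C, and the interaction was 3.25 ± 0.43 (adjusted p = 1.92e-05). The terpene synthase gene Os04g0178300 had 35.3, 25.3 and 32.5 CPM in heated HPS32 and 7.25, 10.8 and 7.18 CPM at 28 °C, against 10.2, 19.5 and 22.9 CPM in heated HJX and 14.6, 27.1 and 15.7 CPM at 28 °C. Its interaction was 2.01 ± 0.50 (adjusted p = 0.0153). The alpha/beta hydrolase gene Os07g0526600 gave 2.38 ± 0.51 (adjusted p = 0.00168). It averaged 3.32 ± 1.18 CPM in heated HPS32 and 0.841 ± 0.45 CPM at 28 °C, against 2.09 ± 0.68 CPM in heated HJX and 2.74 ± 0.33 CPM at 28 °C. Its lines overlapped under heat and not at 28 °C. The peroxidase gene Os03g0121300 gave 1.96 ± 0.54 (adjusted p = 0.00985) and the bHLH gene Os01g0196300 gave 1.72 ± 0.43 (adjusted p = 0.00865, range 0.000151 to 0.0624 over 22 alternatives, lost with limma-voom). The P450 gene Os02g0569400 gave 2.39 ± 0.80 (adjusted p = 0.044, range 0.0191 to 0.133), and 12 of 22 alternatives, the replicate block among them, lost the call.

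Amplified falls had a median interaction of -0.53, and 22.1% of them kept that class with total counts. The asparaginase gene Os04g0650700, an enzyme that frees ammonium from asparagine, kept it. It had 30.2, 27.6 and 26.3 CPM in heated HPS32 and 121, 104 and 90.7 CPM at 28 °C, against 142, 126 and 117 CPM in heated HJX and 134, 164 and 127 CPM at 28 °C. It fell in HPS32 alone by the calls, and the interaction itself was -1.76 ± 0.16 (adjusted p = 1.18e-06). The cupin gene Os09g0552600 gave -2.0 ± 0.32 (adjusted p = 0.000159). The homeodomain leucine zipper gene Os02g0649300 gave -2.22 ± 0.62 (adjusted p = 0.0274, range 0.00236 to 0.0659), and the call was lost without library 1 or 2 of HPS32 at 28 °C or heated HPS32 library 1 or 2. The SWEET sugar efflux gene Os02g0513100 gave -2.05 ± 0.66 (adjusted p = 0.0284, range 0.00384 to 0.0871), and 6 of the 12 omissions of a library lost it: HPS32 at 28 °C libraries 2 and 3, heated HPS32 libraries 1 and 2, and heated HJX libraries 1 and 3.

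Among opposite responses, 2 neighbouring P450 genes on chromosome 2 stood out. Os02g0186100 (4791404 to 4793451) had 27.9, 27.1 and 26.1 CPM in heated HPS32 and 80.3, 84.4 and 112 CPM at 28 °C, against 195, 292 and 171 CPM in heated HJX and 78.5, 49.5 and 81.9 CPM at 28 °C. It fell in HPS32 and rose in HJX without overlap in either line, and the interaction was -3.42 ± 0.37 (adjusted p = 0.000181). Its neighbour Os02g0186200 (4796037 to 4797937) gave -3.44 ± 0.35 (adjusted p = 4.61e-06), with 2.11 ± 0.36 CPM in heated HPS32 and 16.6 ± 4.72 CPM in heated HJX. The 2 genes may share reads if their sequences are close, which was not tested. Another P450 gene, Os12g0582700, gave -3.49 ± 0.42 (adjusted p = 6.39e-06) and the xylanase inhibitor-type gene Os01g0679500 gave -2.81 ± 0.26 (adjusted p = 6.99e-07), and both counted as damped rises with total counts. The peroxidase gene Os06g0695500 averaged 7.33 ± 0.36 CPM in heated HPS32 and 37.4 ± 4.16 CPM in heated HJX, with an interaction of -2.15 ± 0.19 (adjusted p = 1.12e-07). That was against the direction of its family, in which 25 of 90 were positive and 5 negative, beside 13.3% and 16% of all tested genes. The GH3 gene Os01g0221100, of the family that conjugates auxin to amino acids, averaged 40.0 ± 1.78 CPM in heated HPS32 and 172 ± 18.9 CPM in heated HJX, with an interaction of -1.88 ± 0.14 (adjusted p = 3.06e-08), and counted as a damped rise with total counts.

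Autophagy genes, which build the vesicles that recycle cell contents, had a negative interaction in 10 of 21 and a positive one in 1, where 16% of all tested genes were negative. The list's median response was -0.09 in HPS32 and 0.48 in HJX. The ATG9-type gene Os03g0248000 had 41.5, 41.1 and 39.0 CPM in heated HPS32 and 50.8, 49.5 and 51.6 CPM at 28 °C, against 88.7, 84.9 and 83.2 CPM in heated HJX and 52.9, 52.6 and 50.8 CPM at 28 °C. It fell in HPS32 and rose in HJX with TMM and counted as a damped rise with total counts, and the interaction was -1.04 ± 0.09 (adjusted p = 1.31e-07). The ATG8-type gene Os07g0512200, chosen after its values were seen, gave -0.79 ± 0.11 (adjusted p = 2.66e-05) and likewise counted as a damped rise with total counts. The opposite class as a whole was small and hung on scaling, since 55 of its 521 genes kept it with total counts.

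The reverse pattern, a rise in HPS32 with a fall in HJX, was seen in the subtilase gene Os10g0394200, a protease, with 10.7, 11 and 14.8 CPM in heated HPS32 and 7.54, 4.42 and 5.85 CPM at 28 °C, against 4.36, 4.87 and 3.36 CPM in heated HJX and 8.23, 6.86 and 4.41 CPM at 28 °C. The lines did not overlap under heat, the HJX groups overlapped each other, and the interaction was 1.67 ± 0.33 (adjusted p = 0.00099). The CDT1-like gene Os04g0185100, of replication licensing, gave 1.98 ± 0.47 (adjusted p = 0.00411) and the AAA ATPase gene Os03g0264800 gave 1.63 ± 0.38 (adjusted p = 0.00312). The glycosyltransferase gene Os01g0620800 gave 1.58 ± 0.48 (adjusted p = 0.0185, range 0.00384 to 0.0609), lost without heated HPS32 library 3. With total counts Os10g0394200 and Os01g0620800 counted as amplified rises.

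**Figure D5:**
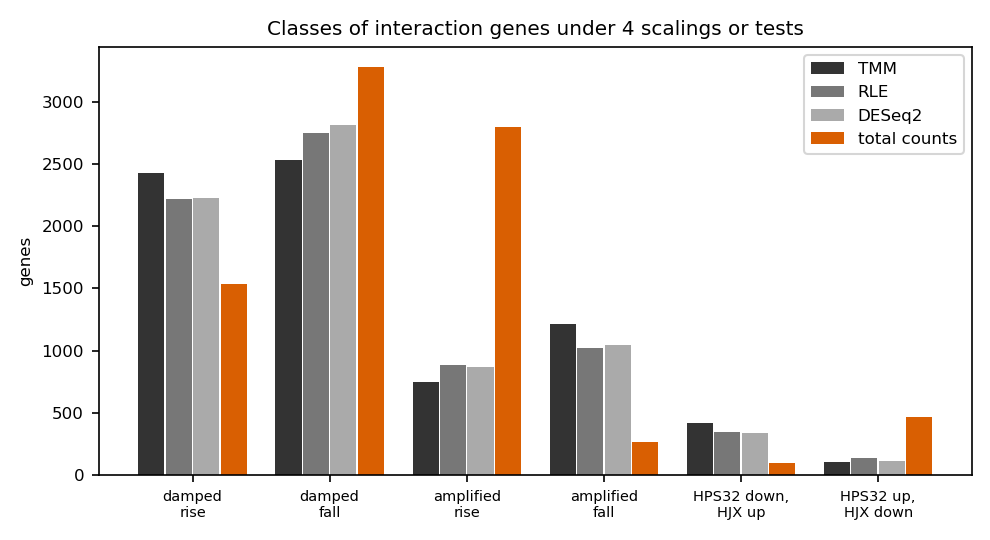
Number of genes in each class of interaction with TMM scaling, RLE scaling, DESeq2 and total-count scaling, on an axis that starts at 0. Damped falls stay within 1.5 times of their TMM count of 2527 under RLE and DESeq2, while with total counts amplified rises reach 2795 and amplified falls 268.

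Catalases, which break down hydrogen peroxide, moved both ways. Os02g0115700 averaged 550 ± 70.7 CPM in heated HPS32 and 272 ± 41.5 CPM in heated HJX, with an interaction of 0.99 ± 0.16 (adjusted p = 0.000144). Os06g0727200 averaged 230 ± 10.9 CPM in heated HPS32 and 368 ± 3.22 CPM in heated HJX, with an interaction of -0.74 ± 0.11 (adjusted p = 4.92e-05).

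CAMTA and G protein genes with an interaction changed by less than 2-fold between the lines' responses. Of 5 CAMTA genes, transcription factors that bind calmodulin, 3 were negative and 0 positive, beside 16% and 13.3% of all tested genes. Their median of -0.26 turned to 0.00 with total counts. Os10g0375600 averaged 129 ± 4.49 CPM in heated HPS32 and 233 ± 13.2 CPM in heated HJX, with an interaction of -0.75 ± 0.10 (adjusted p = 1.84e-05). Os03g0191000 gave -0.40 ± 0.10 (adjusted p = 0.00473, range 0.00214 to 0.345 over 22 alternatives, lost with total counts, where the interaction was -0.13). Os07g0490200 gave -0.26 ± 0.10 (adjusted p = 0.0488, range 0.0112 to 0.986, lost in 17 of 22 alternatives, and of the opposite sign with total counts). Of 6 G protein subunit genes tested, only the gamma subunit RGG2 (Os02g0137800) passed, with -0.33 ± 0.12 (adjusted p = 0.0485, range 0.0315 to 0.733), and 16 of 22 alternatives lost it. The wax regulators WR1 (Os02g0202000) and WR2 (Os06g0604000) had interactions of 0.30 ± 0.34 (adjusted p = 0.557) and 0.37 ± 0.16 (adjusted p = 0.0935), and the adjusted p of WR2 ranged from 0.00633 to 0.253 over 22 alternatives, passing with total counts, with the replicate block, with that block and the length offset, and without HJX 28 °C library 1.

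Some genes had almost no reads in a group, and their levels are given without a fold. The neprosin-domain gene Os07g0179700 had 21.3, 20.1 and 15 CPM in heated HPS32 against 125, 138 and 115 CPM in heated HJX, and under 0.8 CPM in every library at 28 °C. The P450 gene Os08g0262500 had 0.205, 0.213 and 0.258 CPM in heated HPS32 and no read in heated HJX, against 12.1 to 20.4 CPM at 28 °C. Both had a called interaction, with adjusted p of 0.00688 and 0.00341, and the call of Os07g0179700 was lost without HPS32 28 °C library 3 (range 5.9e-07 to 0.0794).

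Interaction genes were spread over the genome. By chromosome, 26.1% (chromosome 11) to 32% (chromosome 3) of tested genes were called, and within 5 Mb of TT2 on chromosome 3 it was 190 of 592, or 32.1%. Among markers of other tissues, the root silicon transporter gene LSI1 (Os02g0745100) averaged 4.03 CPM in heated HPS32 and 9.92 CPM at 28 °C, against 2.97 CPM in heated HJX and 10.3 CPM at 28 °C, and did not pass (0.49, adjusted p = 0.339). Seed reserve and starch breakdown genes were positive in 2 and negative in 6 of 21, beside 13.3% and 16% of all tested genes. Organelle-encoded genes were positive in 1 and negative in 0 of 16. The part of tissue makeup in the results was not tested.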

How the data were processed

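Aerial organs of 12 samples, 3 in each of 4 groups, were measured by RNA sequencing of total RNA. The deposited raw counts per gene, one column per library, were made by the authors with HISAT2 2.0.5 and featureCounts 1.5.0-p3, per the submitters' processing notes, which also name DESeq2 1.20.0. Genome build, annotation and strand setting are not given in the sources used here. Heat columns carry no replicate number of the titles and are called heat libraries 1 to 3. The deposited FPKM columns and test results were not used.

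The fit used edgeR 4.0.16 (R 4.3.3) with filterByExpr, TMM and 1 mean per group over all 12 libraries. The two-sided quasi-likelihood test was robust, and Benjamini-Hochberg adjustment ran over all 25473 tested genes, with 0.05 as the threshold. The SE is the log2 value divided by the square root of F. DESeq2 1.42.0 and limma 3.58.1 (voom) were alternatives. The scripts were checked on simulated counts. At 3 libraries in a group, small interactions can be missed.

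The members, lists and classes were chosen with earlier results of these data known, and support nothing by themselves. Lists follow domain wording in the deposited descriptions. The Calvin cycle and wax lists are kept as first defined, with their off-theme matches. Values without those matches are given beside them, since that choice was made after the values were seen. Named genes were taken from the 4 largest interactions of each class (average log2 CPM of at least 1, a description, at least 10 reads per group), the largest called member of each list in each direction, the 3 highest of those with fewer reads in each direction, and the G protein, WR and CAMTA genes. Genes outside this rule are named as such. Same-numbered 28 °C libraries of both lines deviated together for numbers 1 and 3 (r = 0.426 and 0.403 across genes). For number 2 it was 0.113, close to the highest of the other pairs (-0.431 to 0.0748). Any pairing by number comes from the data and not the labels, and is unclear for number 2. Gene symbols were matched by identifier from general knowledge.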

Additional observations from a re-analysis of the deposited data

Results flagged for a closer look

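The heat responses of HPS32 and HJX differed by the test of the difference itself in 7473 genes. The named genes among them are given here with the log2 interaction, HPS32 response minus HJX response, and with no explanation.

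Rises in HJX that were smaller in HPS32, or not seen there, had a log2 interaction of -4.89 for Os11g0701100, -4.74 for the BAH-domain transcript, -4.30 for Os08g0189200, -7.13 for Os11g0104866, -3.67 for Os11g0127600, -3.60 for Os10g0553300 and -3.62 for Os05g0223200. Further values of this kind were -2.14 for Os08g0473900, -3.30 for Os05g0438600, -0.36 for Os02g0708200, -2.35 for Os02g0273050, -2.11 for Os02g0693200, -1.71 for Os02g0181900 and -1.03 for Os01g0840100. The rest include -1.33 for Os04g0108101, -0.43 for Os09g0482100, -0.87 for Os03g0266300, -0.83 for Os03g0224700, -0.81 for Os05g0169100, -0.74 for Os06g0727200 and -0.75 for Os10g0375600. Next came -0.40 for Os03g0191000, -1.68 for Os09g0294300 and -1.66 for Os08g0558100. Falls in HJX that were smaller in HPS32, or not seen there, had a log2 interaction of 0.75 for Os07g0517100, 2.78 for Os02g0770800, 3.24 for Os06g0168700, 2.83 for Os08g0512600, 2.78 for Os02g0258200, 1.75 for Os08g0119800 and 1.21 for Os03g0592500. Further values of this kind were 1.0 for Os12g0291100, 1.34 for Os06g0132400, 2.01 for Os09g0541000, 1.85 for Os11g0484300, 1.89 for Os05g0476200, 1.79 for Os05g0235800 and 1.33 for Os12g0560700. The rest include 1.74 for Os02g0797400, 1.85 for Os01g0544450, 2.11 for Os03g0162200, 2.16 for Os04g0116800, 1.70 for Os12g0115500, 0.99 for Os02g0115700 and 2.01 for Os04g0553500. Next came 1.67 for Os07g0565000. Rises in HPS32 that were smaller in HJX, or not seen there, had a log2 interaction of 3.25 for Os08g0140300, 2.39 for Os02g0569400, 2.38 for Os07g0526600, 2.01 for Os04g0178300, 1.96 for Os03g0121300 and 1.72 for Os01g0196300. Falls in HPS32 that were smaller in HJX, or not seen there, had a log2 interaction of -0.91 for Os03g0799000, -1.76 for Os04g0650700, -2.0 for Os09g0552600, -2.22 for Os02g0649300, -2.05 for Os02g0513100, -0.33 for Os02g0137800 and -1.17 for Os02g0813600. Further values of this kind were -0.37 for Os02g0182800. Genes down in HPS32 and up in HJX had a log2 interaction of -2.05 for Os02g0273000, -1.64 for Os08g0546800, -3.42 for Os02g0186100, -3.44 for Os02g0186200, -3.49 for Os12g0582700, -2.81 for Os01g0679500 and -2.15 for Os06g0695500. Further values of this kind were -1.88 for Os01g0221100, -1.04 for Os03g0248000, -0.79 for Os07g0512200, -2.76 for Os09g0498500 and -2.38 for Os05g0381400. Genes up in HPS32 and down in HJX had a log2 interaction of 1.67 for Os10g0394200, 1.98 for Os04g0185100, 1.63 for Os03g0264800 and 1.58 for Os01g0620800. The gene with neither response called had a log2 interaction of -0.26 for Os07g0490200. Where a group held fewer than 10 reads, the adjusted p from edgeR was 0.0467 for Os01g0135800, 0.000879 for Os09g0111100, 0.00688 for Os07g0179700, 0.00341 for Os08g0262500, 5.85e-05 for Os11g0701000, 0.00017 for Os11g0701800 and 0.000457 for Os10g0492600.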

How the results depend on the processing

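The total number of interactions stayed within 1.5 times of 7473 under RLE scaling (7391), DESeq2 (7451), limma-voom (7298), no filter (7131), the stricter filter (7519), the length offset (7472), the omission of genes near TT2 (7280) and total counts (8481). With the replicate block at 28 °C, which treats same-numbered libraries as paired, it was 8581, and 7446 of the 7473 kept their call and sign. Beside named genes the block is given where it changed the call. Total counts moved the classes. They gave 6581 positive and 1900 negative interactions, 1531 damped rises, 2795 amplified rises, 268 amplified falls (3063 amplified in all), 94 genes down in HPS32 and up in HJX, and 467 up in HPS32 and down in HJX. The sign turned for Os07g0490200 (0.00349) and for the medians of several lists. Here a list's spread is the SD of its median level between the libraries of a group, scaled up to an interaction of single libraries. From a value larger than this spread, the sign turned for DnaJ (0.00956), bZIP (0.0166), EF-hand (0.0386) and CAMTA (0.00349). The same held for proteasome (0.123), RNA recognition motif (0.0869), protein phosphatase 2C (0.0800) and starch and sucrose (0.0689) lists. From a smaller value it turned for MYB, NAC, chitinase and thaumatin, Clp and chaperonin, thioredoxin, U-box, splicing, sugar transporter and transposon-like lists. The cause was not tested.

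Requiring 2-fold responses and interaction left, by construction, 2108 interactions (1084 positive, 1024 negative), with 696 damped rises and 771 damped falls (1467), 208 amplified rises and 169 amplified falls (377), 14 genes down in HPS32 and up in HJX and 2 the other way (16), and 248 with neither response called. Leaving out 1 library gave 6161 (heated HJX library 1) to 7322 interactions and 24 to 50 genes with neither response called. The alternatives were also tallied over all called genes that the naming rule picked, some of them not named above, and those named outside it. Of these values, 3130 kept the call, 231 lost it and 1 turned. Depth limits genes with few reads. Alternatives for normalized values were not needed, and promoter motifs were not analysed here.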

Other observations

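Among the 14 genes that fell at least 2-fold in HPS32 and rose at least 2-fold in HJX, chosen after their values were seen, the FAD-dependent oxidoreductase gene Os09g0498500 averaged 14.8 ± 0.6 CPM in heated HPS32 and 29.6 ± 4.79 CPM at 28 °C, against 103 ± 12.6 CPM in heated HJX and 30.5 ± 1.76 CPM at 28 °C (SD, n = 3 each). Its interaction was -2.76 ± 0.15 (adjusted p = 7.94e-10). The AWPM-19-like gene Os05g0381400 averaged 3.12 ± 0.16 CPM in heated HPS32 and 7.91 ± 1.95 CPM at 28 °C, against 14.3 ± 2.42 CPM in heated HJX and 6.96 ± 1.48 CPM at 28 °C, with an interaction of -2.38 ± 0.28 (adjusted p = 4.81e-06).

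Some families outside the lists, picked after the values were seen, are given beside all tested genes, of which 13.3% were positive and 16% negative. Of 68 GDSL-like lipase genes, 21 had a positive and 1 a negative interaction, with a median of 0.37. Of 185 genes with the domain named Ring finger, 13 were positive and 45 negative, with a median of -0.13, and of 59 with the C3HC4 type, 1 was positive and 33 negative, with a median of -0.39.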
